A study of Mus musculus with 15 samples.

Results

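The Hox genes of the 4 mouse clusters were taken as every gene symbol made of Hox, a cluster letter from a to d and a paralogue number. The rule used names and no measured value, and found 39 of the 24015 genes in the tables, 11 in HoxA, 10 in HoxB, 9 in HoxC and 9 in HoxD. RNA had been sequenced from mouse embryonic fibroblasts, connective tissue cells grown out of embryos, of the c57bl/6 strain. They were wild type (WT, Nsd2(+/+)) or lacked the histone methyltransferase NSD2 (KO, Nsd2(-/-)). All were grown with donor bovine serum. Cells were naive, or had been pretreated for 3 h with interferon beta, washed and kept for 24 h without it, and RNA was taken at 0 h or 2 h into a course of interferon beta at 100 units/ml. The 8 groups had 2 libraries each, except KO naive 2 h with 1, so there were 8 WT and 7 KO libraries, 15 in all. The labels do not say whether libraries of a group came from separate cultures, embryos or lines. The p-values therefore reflect how far libraries of a group lie apart, which may be only technical, and a difference between embryos or lines cannot be told apart from one between genotypes.

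Hox genes encode homeodomain transcription factors that set the identity of body segments and limb parts along the main axes of the embryo. They lie in 4 clusters in which genes are ordered by paralogue number, and low numbers are used towards the head and high numbers towards the tail and the ends of the limbs. Genes with the same number in different clusters are paralogues that descend from 1 ancestral gene and often share functions. Polycomb complexes keep clusters silent and trithorax complexes keep them active, and cultured fibroblasts are known to hold on to a Hox pattern that reflects where in the body they came from. NSD2 places methyl groups on lysine 36 of histone H3, a mark of transcribed gene bodies.

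HoxD held the largest differences between the genotypes, and HoxB the largest changes after interferon, so the stretch just before the start of 3 HoxD genes and of Hoxb4 is shown. Each is the 250 bases before the RefSeq start on the plus strand of GRCm38.p6, 5′ to 3′, with CpG dinucleotides in capitals. The windows are chr2:74704365-74704614 for Hoxd8, chr2:74697513-74697762 for Hoxd9, chr2:74721728-74721977 for Hoxd4 and chr11:96318017-96318266 for Hoxb4.
Hoxd8: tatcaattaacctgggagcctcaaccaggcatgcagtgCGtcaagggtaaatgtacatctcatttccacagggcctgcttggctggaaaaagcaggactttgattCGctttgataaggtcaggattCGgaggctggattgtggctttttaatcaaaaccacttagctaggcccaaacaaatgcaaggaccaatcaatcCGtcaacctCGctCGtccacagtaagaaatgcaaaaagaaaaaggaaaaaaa
Hoxd9: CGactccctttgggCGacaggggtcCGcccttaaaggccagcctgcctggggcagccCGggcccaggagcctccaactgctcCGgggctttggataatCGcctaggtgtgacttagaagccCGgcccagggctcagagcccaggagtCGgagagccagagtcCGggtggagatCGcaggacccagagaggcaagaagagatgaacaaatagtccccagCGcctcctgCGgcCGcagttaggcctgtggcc
Hoxd4: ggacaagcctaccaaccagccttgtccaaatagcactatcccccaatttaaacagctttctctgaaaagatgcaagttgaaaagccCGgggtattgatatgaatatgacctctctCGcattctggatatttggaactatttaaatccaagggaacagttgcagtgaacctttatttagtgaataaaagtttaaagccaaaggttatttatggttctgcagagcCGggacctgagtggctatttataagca
Hoxb4: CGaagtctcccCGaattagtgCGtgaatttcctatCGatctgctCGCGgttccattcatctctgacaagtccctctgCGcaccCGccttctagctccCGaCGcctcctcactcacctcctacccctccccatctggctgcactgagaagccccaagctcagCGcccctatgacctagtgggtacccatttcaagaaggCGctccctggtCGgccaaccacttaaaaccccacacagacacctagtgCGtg
The Hoxd8 window held 6 CpGs, the Hoxd9 window 13, the Hoxd4 window 3 and the Hoxb4 window 14. The median over all 32851 windows of the table was 6. The table had windows for 22 of the 39 members, 24 windows in all, and their median was 12.5 CpGs. The 5 HoxD genes described below thus ranged widely, from percentile 29 of all windows at Hoxd4 to percentile 82.1 at Hoxd10. All motifs were searched on both strands. A pair of GAAA runs 2 bases apart, the core of interferon-stimulated response elements, was in 0 of the 24 Hox windows and in 2.977% of all windows. Of HoxB only Hoxb1, Hoxb4 and Hoxb8 had a window. Hoxb2, Hoxb3, Hoxb5, Hoxb6 and Hoxb7, also called higher after interferon in at least 1 comparison below, were therefore not searched. TGATNNAT, a site form for Hox proteins with their Pbx partners, was in 4 Hox windows (Hoxd11, Hoxa2, Hoxb8 and Hoxb1) and in 7.683% of all. CCAAT was in 14 Hox windows, Hoxd8 and Hoxd4 among them, and in 33.85% of all. TATAAA was in 4 (Hoxd13, Hoxd4, Hoxa10 and Hoxb8) and in 12.368% of all. AGGTCA, the half-site of nuclear receptors, was in 6 and in 14.024% of all. These are matches of letters in a window, not sites shown to be bound.

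Levels are given as CPM, the share of a library's gene counts scaled up to the usual fixed total. Libraries held 17170845 to 44116418 gene counts with a median of 28585502, so that 1 count stood for 0.0227 to 0.0582 CPM. The ribosomal transcript Rn45s and Lars2 took 10.6% to 29.4% of the counts, with under 20% in 3 of the libraries: WT naive 0 h replicate 1, WT pretreated 2 h replicate 1 and KO pretreated 0 h replicate 2. Whsc1, the files' symbol for the targeted gene, was counted in every library, at 106 to 151 CPM in WT and 91.5 to 124 CPM in KO. Its fitted log2 change in KO was -0.28 ± 0.02 (SE; adjusted p = 2.02e-11). The labels do not say which part of the gene was deleted, so this count checks the genotype labels only weakly. Fibroblast markers were abundant as a sum in both genotypes, with the 12 genes of the list at 12757 to 20486 CPM in WT and 11267 to 14111 CPM in KO. Single members were low in a genotype, such as Thy1 in WT and Dcn in KO, whose values are given below.

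Between 23 and 29 of the 39 Hox genes were detected per library. In WT, 25 were counted in all 8 libraries, made up of 9 of 11 in HoxA, 9 of 10 in HoxB, 2 of 9 in HoxC and 5 of 9 in HoxD. In KO, 20 were counted in all 7 libraries, with 10 in HoxA, 9 in HoxB, 1 in HoxC and 0 in HoxD. Hoxa13, Hoxc8, Hoxc10, Hoxc11, Hoxd1 and Hoxd12 had no count in any of the 15 libraries. The cells therefore used nearly whole HoxA and HoxB clusters, HoxD from Hoxd3 to Hoxd10 in WT alone, and little of HoxC. Summed over all members, WT libraries held 95.5 to 141 CPM with a median of 120 and KO libraries 71.1 to 94.2 CPM with a median of 84.6, and the genotypes did not overlap.

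**Figure D1:**
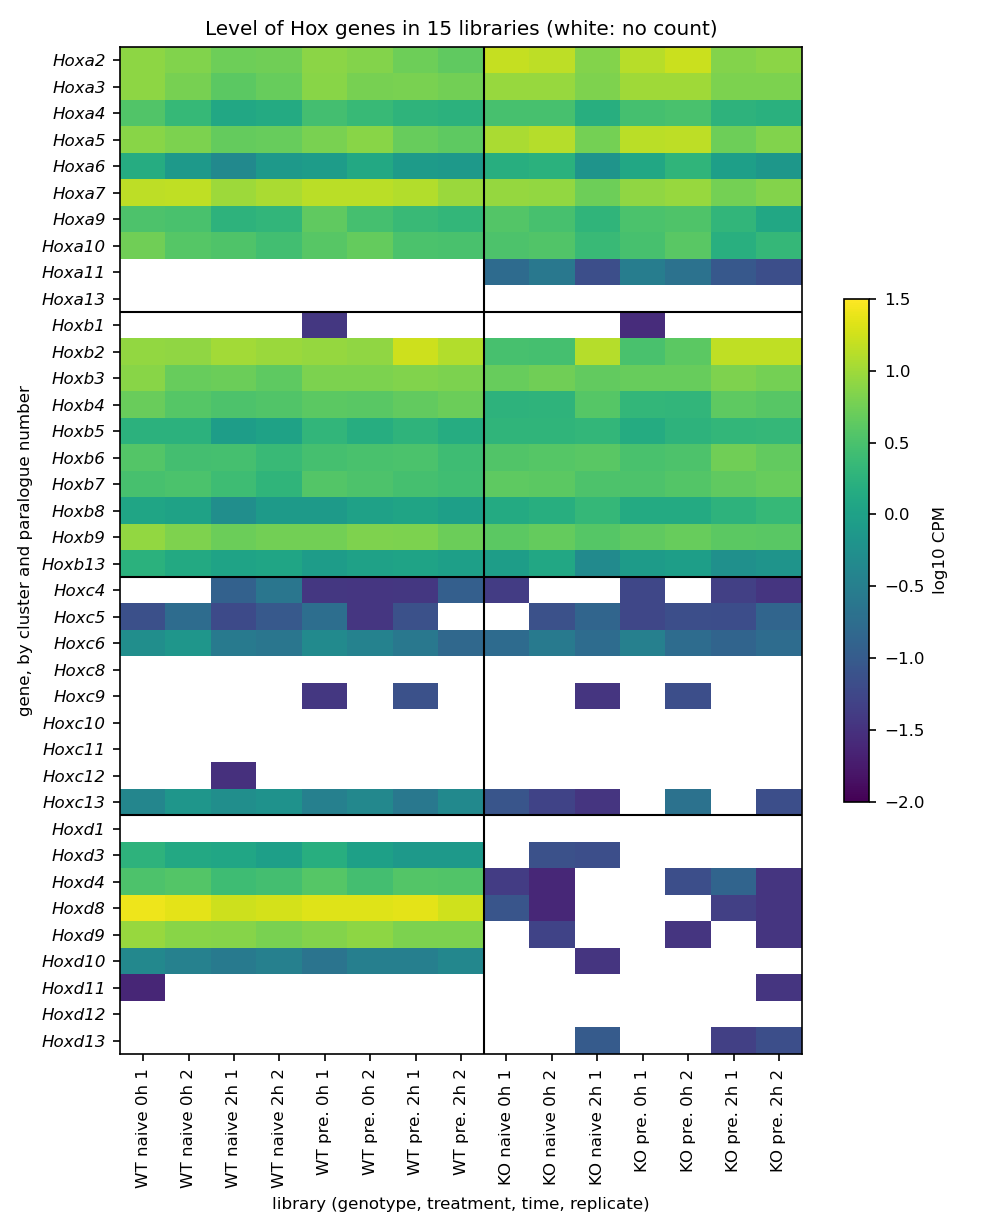
Level of Hox genes (rows, by cluster and paralogue number) in each of the 15 libraries (columns), as log10 CPM in colour, with white for no count. The HoxD block is filled in the 8 WT libraries and almost white in the 7 KO libraries, while HoxA and HoxB are filled in both and HoxC is mostly white.

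To compare levels between genes, CPM was divided by the length of each gene's exons in kilobases. On this scale Hoxd8 was first in WT, with a median of 7.68 CPM per kb and a range of 6.27 to 9.34. Hoxb2 followed at 5.60, Hoxa7 at 5.32, Hoxa2 at 3.47 and Hoxd9 at 3.36 CPM per kb. The ranges of Hoxd8 and Hoxb2 (5.12 to 10.4) overlapped, as did those of Hoxb2 and Hoxa7 (3.83 to 5.96) and of Hoxa2 and Hoxd9. In KO the order changed. Hoxa2 was first at 7.55 CPM per kb, followed by Hoxa5 at 6.00, Hoxa3 at 3.48, Hoxa7 at 3.28 and Hoxb7 at 3.20 CPM per kb. The ranges of Hoxa2 and Hoxa5 overlapped, and so did those of Hoxa5, Hoxa3, Hoxa7 and Hoxb7, while Hoxa2 lay above Hoxa3, Hoxa7 and Hoxb7 in every KO library. These medians pool both times, in WT as in KO. The highest Hoxb2 value in WT, 10.4 CPM per kb, came from a pretreated 2 h library and lay above the highest Hoxd8 value of 9.34. Hoxd8 was therefore not first in every WT library, and the WT order was not split by time, so a higher Hoxb2 at 2 h cannot be read as a trait of KO alone. Hoxa2 was first in each of the 4 KO libraries at 0 h, at 7.55 to 9.42 CPM per kb, and Hoxb2 was first in each of the 3 at 2 h, at 7.97 to 8.99 against 3.97 to 4.36 for Hoxa2. Hoxd8 stood 25th in KO, at a median of 0.0091 CPM per kb.

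The question of the genotype comparison was what loss of NSD2 does to these genes. In the average over the 4 conditions, 25 members had enough counts to be tested, 9 in HoxA, 9 in HoxB, 2 in HoxC and 5 in HoxD. Of these, 22 were called by edgeR's quasi-likelihood test at an adjusted p below 0.05, 7 higher and 15 lower in KO. Among all 13802 tested genes 79.4% were called, 41.3% higher and 38.2% lower, so a call alone says little of a Hox gene. HoxA had 3 higher and 3 lower, HoxB 4 higher and 5 lower, HoxC 0 higher and 2 lower, and HoxD 0 higher and 5 lower. The median log2 change of the tested members was -0.53 against 0.02 over all tested genes. The 5 HoxD and both HoxC members passed the filter on low counts through their WT libraries alone, since no KO library reached the filter's level of 0.35 CPM for any of them. Their part of the count and of the median follows in part from the filter. Of the tested members 9 had levels that did not overlap between the genotypes, where 28% of all tested genes did not. In KO 8 lay below WT in every library (Hoxa7, Hoxb9, Hoxc13, Hoxd3, Hoxd4, Hoxd8, Hoxd9 and Hoxd10), where 14.6% of all tested genes did. Hoxc13 and the 5 HoxD genes among them passed the filter through WT alone. Their place in this count also follows in part from the filter, so it cannot be set squarely against 14.6%. Hoxb8 lay above, where 13.4% did. In these bulk samples fewer cells that use a gene and less of its RNA per cell cannot be told apart.

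Hoxd8, which patterns the trunk, was the most abundant Hox gene by CPM in WT, with 17.2, 21.1 and 25.6 CPM as the lowest, median and highest of the 8 libraries. In the 7 KO libraries it had 2, 1, 0, 0, 0, 2 and 1 counts, at most 0.083 CPM. All 8 WT libraries thus stood far above every KO library. Pooled over libraries, 4675 counts in WT faced 6 in KO, so that Hoxd8 was 812-fold lower in KO (95% exact counting interval 373 to 2214). The fitted log2 change was -10.52 ± 0.15 (SE; edgeR adjusted p = 3.71e-30). This SE was derived from the test statistic and is narrower than counting error on 6 KO counts allows. Those of Hoxd9, Hoxd4 and Hoxd3 below are too narrow in the same way. Hoxd9, a gene of the limb and lower trunk, had 6.21, 7.18 and 9.18 CPM as its WT lowest, median and highest, and 4 counts in 3 KO libraries together. It was 429-fold lower (167 to 1576), with a log2 change of -8.93 ± 0.23 (adjusted p = 1.19e-24). Counting intervals and floors here cover counting error only, not the spread between libraries.

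The other 3 tested HoxD genes went the same way. Hoxd4, used in the hindbrain and neck region, had 2.57, 3.42 and 3.72 CPM as the WT lowest, median and highest, and 0 to 0.136 CPM in KO, with 11 counts in 5 libraries. It was 68.1-fold lower by pooled counts (37.8 to 137; log2 change -6.92 ± 0.28, adjusted p = 9.56e-20). Hoxd3 had 0.767, 1.08 and 1.83 CPM in WT and 5 counts in 2 KO libraries, and was 55.9-fold lower (23.6 to 173; log2 change -6.16 ± 0.41, adjusted p = 1.02e-13). Hoxd10, a limb and tail gene, was low in WT too, at 0.221, 0.33 and 0.433 CPM. It had 1 count in all KO libraries together, a ratio of 78.2 that the single count leaves wide (13.6 to 3127). For each of the 5 genes the WT and KO libraries did not overlap. In the 2 KO pretreated 0 h libraries Hoxd3, Hoxd8 and Hoxd10 had no count, which puts Hoxd8 at least 454-fold lower there when 3 counts over the group are taken as the floor.

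**Figure D2:**
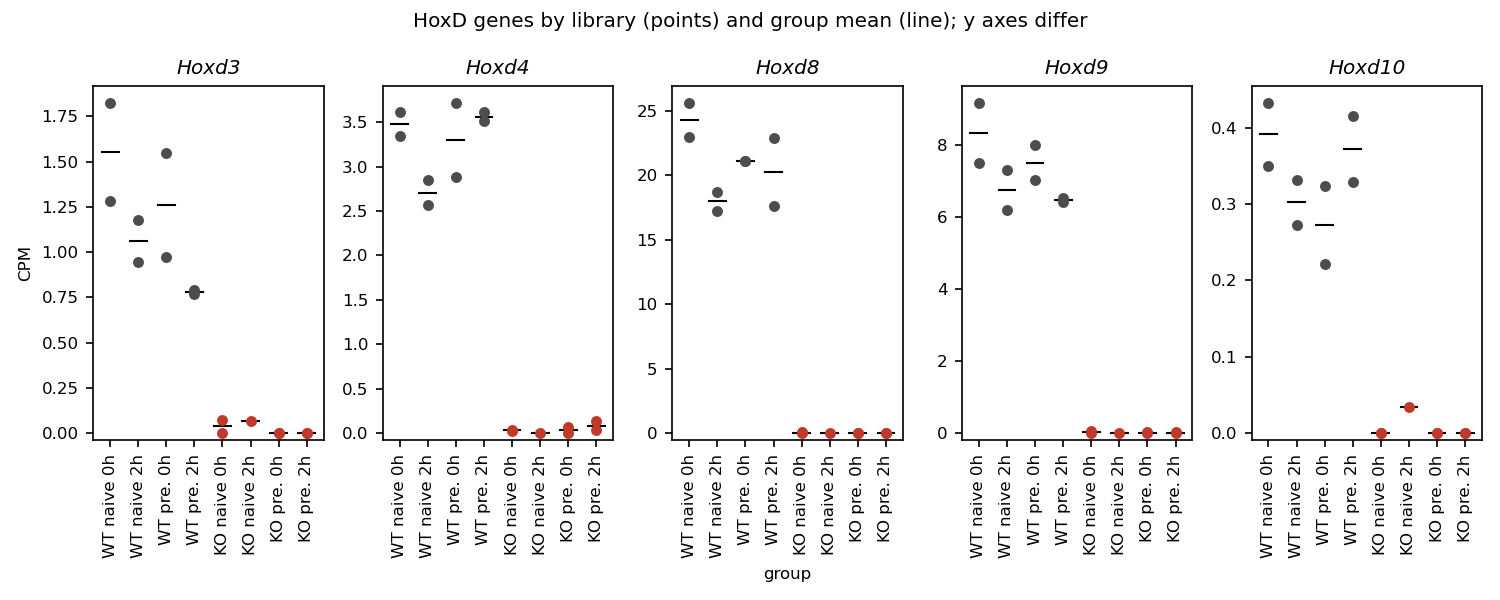
CPM of Hoxd3, Hoxd4, Hoxd8, Hoxd9 and Hoxd10 in each library (points) and the mean of each group (line), with 1 panel per gene and its own y axis. In each panel the 8 WT libraries sit well above 0 and the 7 KO libraries lie at or near 0, at most 0.136 CPM.

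The ends of HoxD differed from its middle. Hoxd1 and Hoxd12 had no count. Hoxd11 had 1 count in WT and 1 in KO. Hoxd13, which shapes digits and the genital region, had no count in WT and 7 counts in KO, all in the 3 libraries taken after 2 h of interferon. Summed over the 9 members, HoxD held 28.5 to 40.4 CPM in WT and 0 to 0.227 CPM in KO. Of all 13802 tested genes, 1057 were called lower by at least 2-fold in the average and 74 by at least 64-fold by the fit, and Hoxd3, Hoxd4, Hoxd8 and Hoxd9 were among the 74. HoxD was called lower in each of the 4 conditions for all 5 of its tested genes, although the call of Hoxd10 at naive 2 h was lost with DESeq2, with no filter and without WT naive 2 h replicate 2.

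Transcripts beside HoxD were looked at next. Hoxd3os1, an antisense transcript at Hoxd3, had a WT median of 0.195 CPM and at most 0.028 CPM in KO (log2 change -4.44 ± 0.84, adjusted p = 2.14e-05). The noncoding Haglr, listed as 6720416L17Rik and too low to be tested, reached 0.226 CPM in WT and had no count in KO. The flanking coding genes did not follow. Mtx2, which encodes a mitochondrial membrane protein, had medians of 37.9 CPM in WT and 36.3 CPM in KO (log2 change -0.04 ± 0.03, adjusted p = 0.292). Lnp, a gene on the other side of the cluster that shapes the endoplasmic reticulum, rose by 0.32 ± 0.03 on the log2 scale. Evx2, at the edge of the cluster, had no count in any library. Over the 4 clusters 11 flanking genes were tested, of which 4 were higher and 3 lower in KO. Of all tested genes 41.3% were higher and 38.2% lower, so this count does not set the flanking genes apart. Among those called were Hibadh, Tax1bp1 and Skap2 beside HoxA, which fell by 0.61 ± 0.03, 0.42 ± 0.02 and 0.43 ± 0.03 on the log2 scale. Calcoco1 beside HoxC rose by 0.86 ± 0.06. Of the noncoding transcripts of the clusters 14 of 20 listed were in the tables and 3 were tested. Besides Hoxd3os1 these were Mira in HoxA, which fell by 0.58 ± 0.06, and Hoxaas3, listed as 2700086A05Rik, which rose by 0.65 ± 0.24 (adjusted p = 0.0159). Without a known strand setting, reads of a gene and of its antisense transcript cannot be told apart.

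In HoxC, 2 of 9 members could be tested. Hoxc13, known for its role in hair and nail, had 0.256, 0.442 and 0.699 CPM as the WT lowest, median and highest, and 0, 0.05 and 0.21 CPM in KO. Pooled counts of 100 and 13 made it 8.02-fold lower in KO (4.48 to 15.6; log2 change -3.06 ± 0.47, adjusted p = 8.07e-07). Hoxc6, a thoracic gene, had 0.151, 0.316 and 0.699 CPM in WT and 0.136, 0.172 and 0.334 CPM in KO. These ranges overlapped, and its log2 change of -0.71 ± 0.31 (adjusted p = 0.0369) lost its call in 10 of 22 alternative fits. The rest of the cluster was near 0. Hoxc4 had 15 counts in WT and 6 in KO, Hoxc5 had 18 in each genotype, Hoxc9 had 3 in each, and Hoxc12 had 1 in WT. At this depth no difference could be seen in these.

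HoxA moved in both directions, and in the average over conditions no tested member changed as much as 2-fold. Hoxa2, which patterns the second pharyngeal arch, had 4.49, 6.16 and 7.93 CPM as its WT lowest, median and highest and 7.05, 13.4 and 16.7 CPM in KO. It rose by 0.78 ± 0.06 on the log2 scale (adjusted p = 3.2e-13) and, alone among the members, was called higher in all 4 conditions. Hoxa5, which guides the lung and neck skeleton, had 4.26, 5.59 and 7.67 CPM in WT and 5.33, 11.3 and 14 CPM in KO, and rose by 0.65 ± 0.07 (adjusted p = 1.04e-09). Hoxa3, needed for thymus and parathyroid, had 4.11, 6.07 and 7.98 CPM in WT and 6.37, 9.01 and 10.04 CPM in KO, and rose by 0.42 ± 0.06 (adjusted p = 7.27e-07). The KO libraries taken at 0 h lay above every WT library for all 3, and those taken at 2 h lay within the WT range of both times together. Against WT at 2 h alone, Hoxa2 was higher in KO by 0.47 in naive and 0.63 in pretreated cells. Hoxa3 was higher by 0.65 in naive cells and Hoxa5 by 0.43 in pretreated cells, and neither was called in the other kind of cells at 2 h. The naive values rest on 1 KO library.

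Hoxa7 and Hoxa10 fell. Hoxa7 had 9.54, 13.2 and 14.9 CPM in WT and 5.38, 8.17 and 9.06 CPM in KO, with no overlap, and fell by 0.76 ± 0.06 on the log2 scale (adjusted p = 4.25e-12). Hoxa10, known from the uterus and limb, fell by 0.47 ± 0.1 (adjusted p = 6.16e-05). Hoxa4, Hoxa6 and Hoxa9 did not pass, with log2 changes of 0.13 ± 0.11, 0.34 ± 0.18 and -0.09. Hoxa11, a limb gene, was below the filter but had counts in all 7 KO libraries, 39 in total at 0.068 to 0.306 CPM, and none in the 8 WT libraries. With the floor of 3 counts over the group, it was at least 12.5-fold higher in KO. Its antisense transcript Hoxa11os was listed the same way, at 0.025 to 0.14 CPM in KO and with no count in WT, and the reads of this pair may be shared.

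HoxB moved in both directions too. In the average over conditions Hoxb2, Hoxb3 and Hoxb4 at the low-numbered end fell by 0.57 ± 0.06, 0.19 ± 0.08 and 0.57 ± 0.09 on the log2 scale. Hoxb5, Hoxb6, Hoxb7 and Hoxb8 rose by 0.41 ± 0.12, 0.43 ± 0.09, 0.45 ± 0.09 and 0.95 ± 0.14. Hoxb9 and Hoxb13 at the high-numbered end fell by 0.53 ± 0.07 and 0.60 ± 0.16. No single condition held all of these calls, and position in the cluster was not tested. The average mixes times. Hoxb2 and Hoxb4 were called lower at 0 h only, with Hoxb2 called higher at naive 2 h, and Hoxb5, Hoxb6 and Hoxb8 were called higher at 2 h only. In the average all 9 were called, with Hoxb3 the weakest (adjusted p = 0.0235), and its call was lost in 6 of 22 alternative fits. Hoxb5 was called at an adjusted p of 0.00232, but without the single KO naive 2 h library its change was 0.16 and it was not called.

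Most of these steps were small beside those of HoxD. Hoxb8, a gene of the trunk and blood lineage, had 0.544, 0.976 and 1.15 CPM as its WT lowest, median and highest and 1.36, 1.57 and 2.24 CPM in KO, with every KO library above every WT library. Hoxb9 had 5.20, 6.06 and 8.53 CPM in WT and 3.73, 4.22 and 4.83 CPM in KO, with every KO library below. Hoxb7 had 1.94, 2.99 and 3.68 CPM in WT and 3.31, 4.13 and 4.82 CPM in KO, and Hoxb6 had 2.32, 2.94 and 3.68 CPM in WT and 3.09, 3.84 and 5.49 CPM in KO. Hoxb5 had 0.877, 1.63 and 1.99 CPM in WT and 1.45, 1.97 and 2.13 CPM in KO. The genotypes overlapped for Hoxb5, Hoxb6 and Hoxb7. Hoxb13 had 0.847, 1.06 and 1.71 CPM in WT and 0.479, 0.834 and 1.25 CPM in KO, which overlapped as well. Hoxb1, the first gene of the cluster, had 1 count in each genotype.

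**Figure D3:**
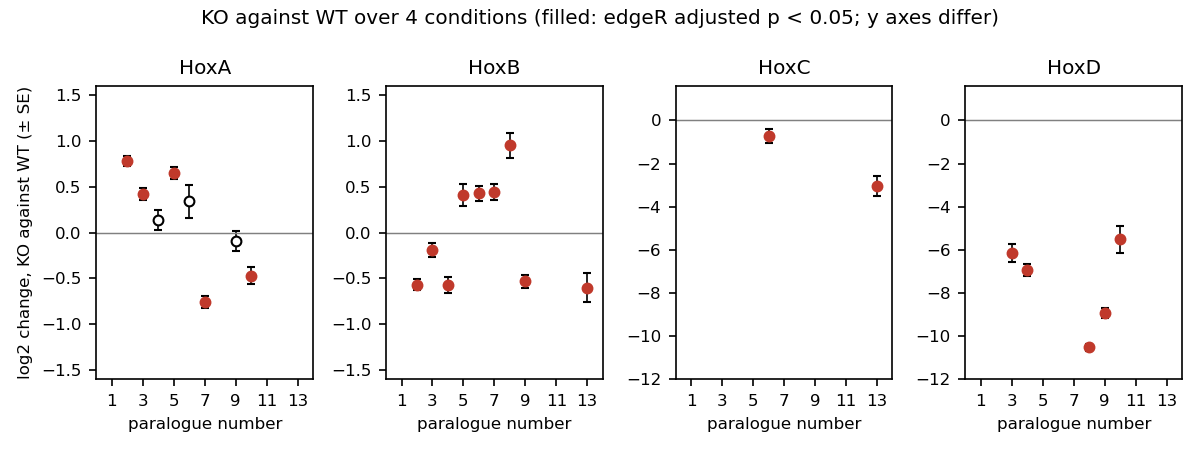
Fitted log2 change in KO against WT, averaged over 4 conditions, by paralogue number in each cluster, with bars of 1 SE and filled points for members called by edgeR. For Hoxd3, Hoxd4, Hoxd8 and Hoxd9 these bars are narrower than counting error allows. HoxD lies between -5.51 and -10.52, HoxA and HoxB lie between -0.76 and 0.95, and in HoxB the members 5 to 8 are above 0 with 2 to 4, 9 and 13 below.

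Sums over paralogue groups show where other clusters stood beside HoxD. Group 8 held 17.7 to 26.8 CPM in WT and 1.36 to 2.27 CPM in KO, since Hoxd8 made up most of it and Hoxc8 had no count. Group 9 held 13.7 to 21 CPM in WT and 5.33 to 8.33 CPM in KO. Group 4 held 7.29 to 11.9 CPM in WT and 4.92 to 6.32 CPM in KO. In each of these 3 the genotypes did not overlap, and KO was lower. Group 11 was the reverse, with at most 0.024 CPM in WT and 0.068 to 0.306 CPM in KO, nearly all of it Hoxa11. Group 3 overlapped, at 9.96 to 17.5 CPM in WT and 11.3 to 14.9 CPM in KO, with Hoxd3 lower and Hoxa3 higher.

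Condition by condition, the tested HoxD genes were called lower each time, while calls in HoxB differed. At naive 0 h 4 members were called higher and 13 lower, where 67.1% of all tested genes were called, 34.3% higher and 32.7% lower. At naive 2 h 7 were higher and 10 lower, against 32.3% and 28.8% of all genes (61.2% in all). At pretreated 0 h 3 were higher and 12 lower, against 32.8% and 31.8% (64.7% in all). At pretreated 2 h 5 were higher and 11 lower, against 35.6% and 30.7% (66.3% in all). Each count of lower members includes HoxD and HoxC genes that passed the filter through WT libraries alone, so it follows in part from the filter. Hoxa7, Hoxb9, Hoxc13 and the 5 HoxD genes were among the members called lower in all 4 conditions, and single calls of Hoxb9 and Hoxc13 were lost in fits with 1 library left out. Hoxb2 was the one member called both ways. It was lower in KO at naive 0 h (log2 change -1.40 ± 0.13) and pretreated 0 h (-1.34 ± 0.13), higher at naive 2 h (0.44 ± 0.12), and at 0.03 ± 0.09 at pretreated 2 h (adjusted p = 0.773). Hoxb4 was lower at naive 0 h and pretreated 0 h (-1.18 ± 0.17 and -1.09 ± 0.18) and was not called at 2 h (0.18 ± 0.20 and -0.20 ± 0.15).

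The next question was what 2 h of interferon beta did to the same genes. Unscaled CPM moved for most genes here: 55.2% of tested genes had lower CPM in both WT naive 2 h libraries than in both at 0 h, and 69.3% did in KO naive cells. The calls come from the fit with TMM-scaled library sizes, so a fall in CPM is not by itself a fall. In WT naive cells 4 of 25 members were called, 1 higher and 3 lower, where 30.6% of all tested genes were called, 15% higher and 15.6% lower. In KO naive cells 9 were called, 3 higher and 6 lower, against 36.2% of all genes, 19.1% higher and 17.2% lower. In pretreated WT cells 5 were called, 1 higher and 4 lower, against 22.7%, 12.2% higher and 10.5% lower. In pretreated KO cells 14 were called, 7 higher and 7 lower, against 31.5%, 17.9% higher and 13.6% lower. In each of the 4 comparisons all members called higher were in HoxB and all called lower were in HoxA, and no HoxC or HoxD gene was called. In KO a call in HoxC or HoxD was hardly possible, since no KO library reached the filter's level for their tested genes. The KO counts of 9 and 14 among 25 therefore cannot be set squarely against the shares of all genes. The count for WT naive cells rests on few libraries: leaving out WT naive 0 h replicate 1 left 1 member called, and leaving out replicate 1 of the 2 h group left 2.

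Hoxb2, a hindbrain and facial nerve gene, was called higher after interferon in all 4, with the call in WT naive cells resting on 1 library. WT naive libraries held 8.56 and 8.33 CPM at 0 h and 10.3 and 9.39 CPM at 2 h, and WT pretreated ones 8.84 and 8.39 CPM at 0 h and 16.9 and 12.5 CPM at 2 h. KO naive libraries held 3.05 and 2.94 CPM at 0 h and 13 CPM in the single 2 h library, and KO pretreated ones 3.14 and 4.09 CPM at 0 h and 14.6 and 14.5 CPM at 2 h. At 0 h every KO library lay below every WT library, and at 2 h the KO library of naive cells lay above both WT ones and those of pretreated cells between the WT ones. The log2 changes were 0.50 ± 0.11 in WT naive (adjusted p = 0.000837), 0.81 ± 0.10 in WT pretreated (4.98e-07), 2.33 ± 0.14 in KO naive (3.92e-14) and 2.18 ± 0.11 in KO pretreated cells (4.52e-16). Without WT naive 0 h replicate 1 the change in WT naive cells was 0.34 and was not called (adjusted p = 0.114). The rise was larger in KO by 1.84 ± 0.18 on the log2 scale in naive cells (adjusted p = 7.62e-09) and by 1.38 ± 0.16 in pretreated cells (adjusted p = 1.83e-07).

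Hoxb4, known from blood stem cells and the neck region, also started low in KO. WT naive libraries held 5.05 and 3.79 CPM at 0 h and 3.36 and 3.56 CPM at 2 h, and WT pretreated ones 4.20 and 4.03 CPM at 0 h and 4.50 and 5.20 CPM at 2 h. KO naive libraries held 1.84 and 1.92 CPM at 0 h and 3.77 CPM at 2 h, and KO pretreated ones 2.06 and 1.99 CPM at 0 h and 4.28 and 3.85 CPM at 2 h. Hoxb4 rose in KO naive cells (log2 change 1.21 ± 0.22, adjusted p = 5.16e-05) and in KO pretreated cells (1.17 ± 0.17, adjusted p = 1.6e-06), with log2 changes of -0.14 ± 0.16 and 0.28 ± 0.15 in WT that were not called. The genotype difference was 1.35 ± 0.27 in naive cells (adjusted p = 0.000524) and 0.89 ± 0.23 in pretreated cells (adjusted p = 0.0103). Hoxb8 rose in KO naive (0.74 ± 0.27, adjusted p = 0.0308) and KO pretreated cells (0.70 ± 0.22, adjusted p = 0.0143), from 1.36 to 1.57 CPM at 0 h to 1.81 to 2.24 CPM at 2 h. In KO pretreated cells Hoxb6, Hoxb7, Hoxb5 and Hoxb3 rose as well, by 0.83 ± 0.15, 0.56 ± 0.15, 0.54 ± 0.20 and 0.52 ± 0.13. The calls of Hoxb8, Hoxb5 and Hoxb3 were each lost in some fits with 1 library left out, those of Hoxb8 and Hoxb5 with DESeq2 as well. Hoxb9 and Hoxb13 were not called in any of the 4 interferon comparisons.

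**Figure D4:**
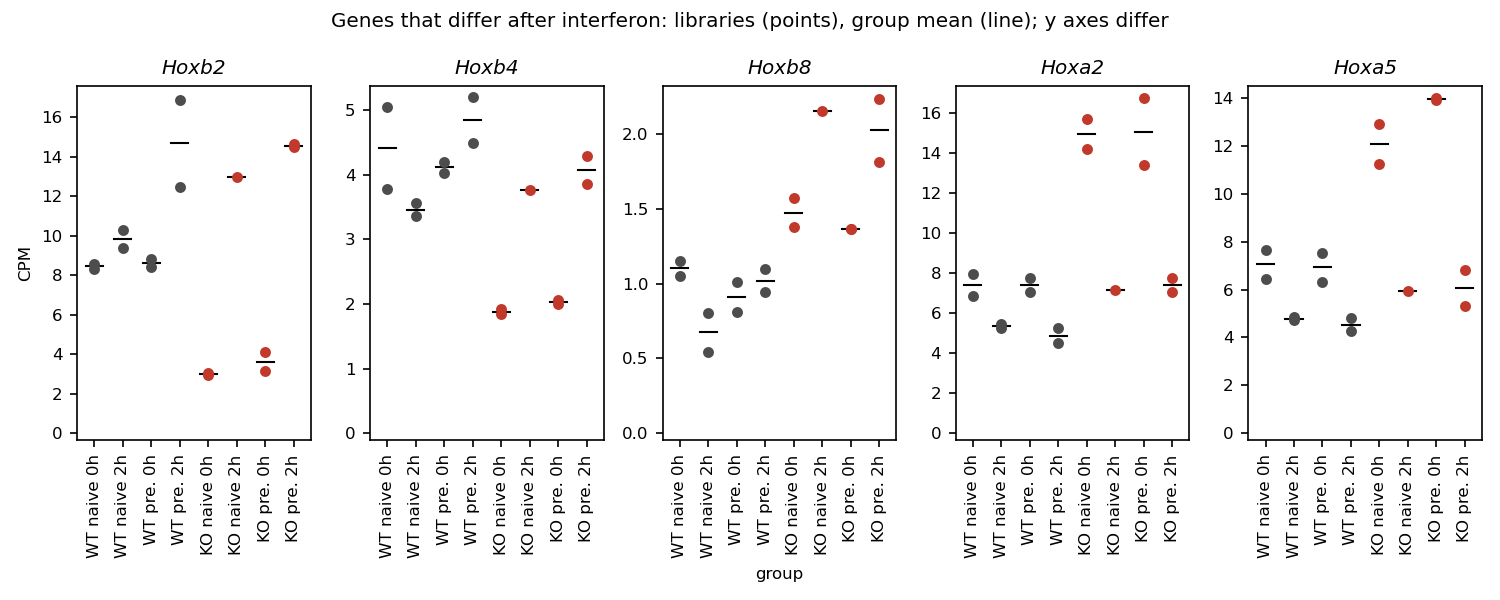
CPM of Hoxb2, Hoxb4, Hoxb8, Hoxa2 and Hoxa5 in each library (points) and the mean of each group (line), with 1 panel per gene, its own y axis and "pre." for pretreated. In KO the 3 HoxB genes are higher at 2 h than at 0 h (Hoxb2 from 2.94 to 4.09 CPM up to 13 to 14.6 CPM) and both HoxA genes are lower (Hoxa2 from 13.4 to 16.7 CPM down to 7.05 to 7.74 CPM).

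HoxA genes fell after interferon. Hoxa2 held 7.93 and 6.87 CPM in WT naive libraries at 0 h and 5.26 and 5.45 CPM at 2 h, and 15.7 and 14.2 CPM in KO naive libraries at 0 h and 7.16 CPM at 2 h. In pretreated cells it held 7.74 and 7.06 CPM at 0 h and 5.26 and 4.49 CPM at 2 h in WT, and 13.4 and 16.7 CPM at 0 h and 7.05 and 7.74 CPM at 2 h in KO. It fell by 0.84 ± 0.12 in KO naive (adjusted p = 3.22e-06), 0.87 ± 0.09 in KO pretreated (9.11e-09) and 0.56 ± 0.12 in WT pretreated cells (0.00084). The change in WT naive cells was -0.22 ± 0.12 (adjusted p = 0.163), and the genotype difference in naive cells was -0.61 ± 0.17 (adjusted p = 0.0138).

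Hoxa5 was called lower in 3 of the 4 comparisons, most in KO pretreated cells. There the libraries held 13.9 and 14 CPM at 0 h and 5.33 and 6.81 CPM at 2 h, a log2 change of -1.07 ± 0.11 (adjusted p = 4.97e-09). Hoxa4, which had 3.53 and 2.21 CPM in WT naive libraries at 0 h and 1.24 and 1.38 CPM at 2 h, fell by 0.97 ± 0.21 there (adjusted p = 0.000679). It also fell in both kinds of KO cells, by 0.74 ± 0.25 and 0.62 ± 0.18. Hoxa3 fell in WT naive and KO pretreated cells, by 0.45 ± 0.13 and 0.49 ± 0.11. Hoxa9 fell in both kinds of pretreated cells, by 0.68 ± 0.21 in WT and 0.81 ± 0.21 in KO. Hoxa6 and Hoxa7 were called lower in KO naive cells alone, and Hoxa10 in KO pretreated cells alone, and the genotype difference was not called for any of these 3. Several of these calls were lost with 1 library left out. Those of Hoxa3 and Hoxa4 in WT naive cells were lost without WT naive 0 h replicate 1. That of Hoxa5 in WT pretreated cells was lost without WT pretreated 0 h replicate 2, and those of Hoxa9 without replicate 2 of the 2 h group. Hoxa9 in WT pretreated cells lost its call in 5 of 11 alternative fits, and Hoxa3 in WT naive cells in 4 of 11. In KO the calls of Hoxa4 (naive and pretreated), Hoxa6 and Hoxa10 were each lost without some single library, those of Hoxa4 and Hoxa6 with DESeq2 as well. Sums over a cluster, in CPM and with no test, went opposite ways in KO. HoxA held 59.6 to 66.7 CPM in the 4 KO libraries at 0 h and 32.8 to 36.1 CPM in the 3 at 2 h, while HoxB held 24.6 to 27.9 CPM at 0 h and 37.1 to 44.3 CPM at 2 h. In WT naive cells HoxA held 58.3 and 48.6 CPM at 0 h and 34 and 37.1 CPM at 2 h, and HoxB 41.1 and 34 CPM at 0 h and 31.9 and 30.1 CPM at 2 h. In WT pretreated cells HoxA held 53.5 and 50.3 CPM at 0 h and 40.4 and 34.7 CPM at 2 h, and HoxB 35.4 CPM in both libraries at 0 h and 44.9 and 38.1 CPM at 2 h. In unscaled CPM, HoxA sums were thus lower at 2 h in both genotypes, and HoxB sums were higher at 2 h in all but WT naive cells. Since CPM fell for most genes in naive cells, the lower sums there are not by themselves a fall. No HoxB member was called lower after interferon.

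**Figure D5:**
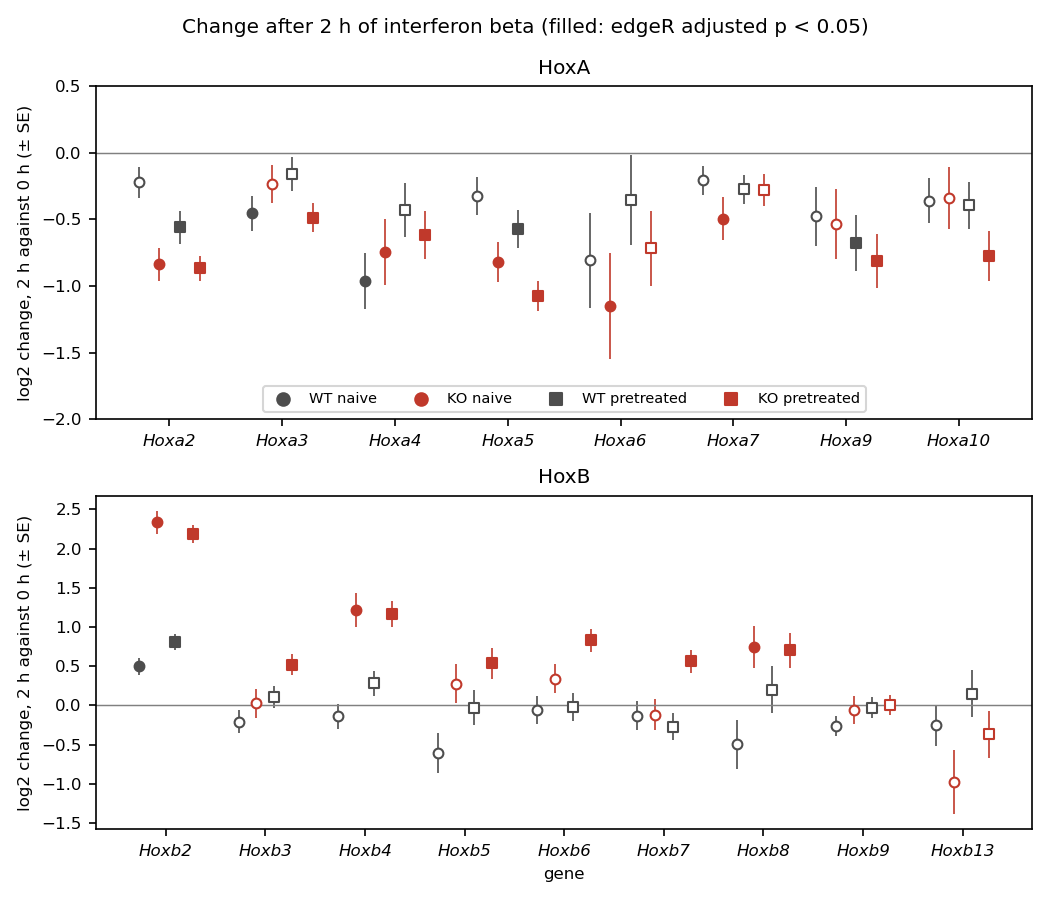
Fitted log2 change after 2 h of interferon beta for tested HoxA (top) and HoxB (bottom) genes in WT and KO, naive and pretreated cells, with bars of 1 SE and filled points for members called by edgeR. The called HoxA points lie below 0 and the called HoxB points above, and Hoxb2 reaches 2.33 and 2.18 in KO against 0.50 and 0.81 in WT.

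The genotype difference of the interferon change was called for 4 members in naive cells, Hoxb2, Hoxb4 and Hoxb8 as higher and Hoxa2 as lower in KO, where 15.3% of all tested genes were called, 8.46% higher and 6.85% lower. In pretreated cells it was called for Hoxb2, Hoxb4, Hoxb6 and Hoxb7, all higher in KO, where 9.03% of all were called, 6.53% higher and 2.51% lower. Hoxb6 had a difference of 0.85 ± 0.23 (adjusted p = 0.0149) and Hoxb7 of 0.83 ± 0.23 (0.0156), and Hoxb8 in naive cells of 1.24 ± 0.41 (0.0387). Tested HoxC and HoxD genes, below the filter's level in every KO library, could hardly be called for this difference. Single libraries decided several of the calls that were made. Leaving out WT naive 0 h replicate 1 left 2 members called in naive cells. In pretreated cells 1 was called without KO pretreated 0 h replicate 2, and 2 without WT pretreated 2 h replicate 1 or without KO pretreated 2 h replicate 1. Both calls of Hoxb2 and the naive call of Hoxb4 held in every alternative run.

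Pretreatment left no called trace in the Hox genes at 0 h. Of 25 tested members edgeR called 0 in WT, where 24% of all tested genes were called, and 0 in KO, where 21.7% were. DESeq2 also called 0 in each. At an unadjusted p below 0.05 there were 2 in WT and 2 in KO, with 1 of those in KO from HoxD. No KO library reached the filter's level for any tested HoxC or HoxD gene, so these could hardly be called in KO. The KO count of 0 thus cannot be set squarely against 21.7%. The closest to a call in WT was Hoxb7, at 3.68 and 3.31 CPM pretreated and 3.03 and 3.20 CPM naive (log2 change 0.39 ± 0.17, adjusted p = 0.0988). Hoxb2 had log2 changes of 0.22 ± 0.11 in WT and 0.28 ± 0.15 in KO, and Hoxa2 of 0.17 ± 0.11 and 0.03 ± 0.09. The genotype difference of the pretreatment change was called by edgeR for 0 members, with 2 at an unadjusted p below 0.05 and 0 by DESeq2, where 3.22% of all genes were called. Without WT pretreated 0 h replicate 2 the WT count was 1.

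Genes that work with the clusters were taken from lists. The Pbx, Meis and Pknox genes encode partner proteins that bind DNA together with Hox proteins. In KO against WT 6 of the 9 were higher and 2 lower, where 41.3% of all tested genes were higher and 38.2% lower, and the list's median log2 change was 0.36 against 0.02 for all genes. Meis2 held 15.1 to 28.8 CPM in WT and 73.5 to 114 CPM in KO (log2 change 2.08 ± 0.03, adjusted p = 7.37e-30), and Meis1 10.2 to 31.6 CPM in WT and 42.9 to 87.2 CPM in KO (1.93 ± 0.03, adjusted p = 4.75e-29). The genotypes did not overlap for either. Pknox1 rose by 0.49 ± 0.03. After interferon Meis1 fell by 1.16 ± 0.07 in WT naive and 0.61 ± 0.07 in KO naive cells.

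Chromatin regulators of the clusters moved in both directions. Of 32 Polycomb genes, 12 were higher and 13 lower in KO, with a median log2 change of -0.04. Aebp2, a cofactor of the H3K27 methyltransferase complex, fell by 0.71 ± 0.03, while Cbx2 and Cbx6, readers of that mark, rose by 0.79 ± 0.04 and 0.50 ± 0.03. Of 14 trithorax and MLL genes, 8 were higher and 5 lower. Dot1l, the H3K79 methyltransferase, fell by 0.71 ± 0.04 and Psip1, which tethers MLL to chromatin, rose by 0.57 ± 0.03. Retinoic acid is an upstream signal of Hox genes, and of 16 tested genes of its supply and reception 7 were higher and 8 lower. Cyp26b1, which breaks retinoic acid down, had 13.2 to 23.7 CPM in WT and 2.57 to 4.81 CPM in KO (log2 change -2.11 ± 0.07, adjusted p = 4.25e-22). Since 79.4% of all tested genes were called, these counts alone do not set the lists apart.

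Other transcription factors that mark body position were taken from a list too. Of 27 tested, 16 were higher and 10 lower in KO, where 41.3% of all tested genes were higher and 38.2% lower, and the list's median log2 change was 0.77 against 0.02 over all genes. Tbx20, a heart and motor neuron factor, had 1.99 to 4.14 CPM in WT and 33.6 to 97.7 CPM in KO. Irx3 had at most 0.219 CPM in WT and 12.9 to 36.6 CPM in KO, and Tbx18 at most 0.048 CPM in WT and 14.6 to 19.4 CPM in KO. Gata6 had 1.45 to 3.29 CPM in WT and 21.6 to 27.2 CPM in KO. In the other direction Nkx2-5, a heart and spleen factor named here after its values were seen, had 5.82 to 8.44 CPM in WT and at most 0.042 CPM in KO. None of these 5 overlapped between the genotypes.

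Markers of cell types moved with the genotype beside the Hox genes. Of 12 fibroblast markers 7 were higher and 4 lower in KO, where 41.3% of all tested genes were higher and 38.2% lower. These shares stand beside every marker count below. With 79.4% of all tested genes called, the counts alone do not set the markers apart. Thy1 had 0.047 to 0.175 CPM in WT and 29.6 to 33.9 CPM in KO, Pdgfra 4.49 to 7.40 CPM in WT and 37.7 to 124 CPM in KO, and Dcn 16.3 to 20.6 CPM in WT and 1.17 to 4.76 CPM in KO. The 7 epithelium markers summed to 17.6 to 30.7 CPM in WT and 55.8 to 71.1 CPM in KO, of which Krt19 was the bulk, with 2 called higher and 1 lower of 3 tested, and Epcam had no count in WT and at most 0.091 CPM in KO. The 7 neural markers summed to 24.8 to 39.2 CPM in WT and 54.2 to 75.4 CPM in KO, most of it Tubb3, with 2 higher and 1 lower of 4 tested. The 8 blood and macrophage markers summed to 3.05 to 5.12 CPM in WT and 1.45 to 2.54 CPM in KO, with 0 higher and 2 lower of 3 tested and with Emr1, Hbb-b1 and Hba-a1 at no count in both. The 6 endothelium markers summed to 1.51 to 3.18 CPM in WT and 1.88 to 2.97 CPM in KO, with 1 higher and 2 lower of 4 tested. The 7 skeletal muscle markers summed to 0.905 to 2.03 CPM in WT and 3.79 to 9.76 CPM in KO, with 2 higher of 2 tested and with Myod1 and Ckm at no count. The part of these differences in the Hox differences was not tested.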

How the data were processed

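The authors deposited raw counts of reads for each gene symbol, in a table for each library. Per the labels' protocols, RNA extracted with TRIzol went through NuGEN's Ovation SP Ultralow chemistry (Mondrian SP instrument) and paired-end sequencing (HiSeq2000). The submitters' processing notes name bcl2fastq 2.15, HTSeq, STAR 2.5.2b and mm9. Annotation, strand setting and filters: not given in the sources used here. Reads in no gene (35.1% to 41.3% of unique alignments) and ambiguous reads (0.393% to 0.496%) stayed out of library sizes and tests.

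CPM was taken over gene counts, without further scaling. The fit used edgeR 4.0.16 (R 4.3.3) with TMM factors, filterByExpr at a minimum count of 10 (13802 genes kept), 1 mean per group over the 15 libraries (7 residual degrees of freedom), the quasi-likelihood test and Benjamini-Hochberg adjustment over all kept genes, with calls below 0.05. KO naive 2 h, with 1 library, was assumed to vary like the others. Changes are log2 ± SE, where SE is the size of the change over the square root of the test's F. For members with few counts in a genotype this SE can understate the error. A side with no count took a group floor of 3 counts, and pooled ratios carry a 95% exact binomial interval. Fitted changes of members with no count in a group depend on the prior count and are no bound.

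Absent symbols were matched through RefSeq synonyms. Exon lengths came from GENCODE M21 (GRCm38) and promoter windows from RefSeq (GRCm38.p6), both of a later build than mm9. Replicates of a group differed beyond sampling noise, with 1.93 to 4.81 as the range of chi-square over its degrees of freedom when Rn45s and Lars2 are left out. The members and lists were chosen with earlier results of these data known. Library values were given for the 8 largest rises (7 were called) and falls in KO, the highest member of each cluster and the 3 smallest p of each other comparison, with up to 4 genes of each other list. The neighbours of HoxD, Nkx2-5 and single cell type markers were added after their values were seen. Alternatives were RLE factors, no filter, DESeq2 1.42.0, a replicate block, counts without Rn45s and Lars2, no library low in them, only the groups compared (for the average, genotype plus condition with no interaction) and each library left out. The steps were tested on simulated counts. A few genes that enter the counts and sums are not reported here by name or drawn. Figures were drawn with matplotlib 3.10.9.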

Additional observations from a re-analysis of the deposited data

Results flagged for a closer look

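For 6 members the change after interferon differed between the genotypes by the test of the difference itself, each as the log2 change in KO minus that in WT. In naive cells Hoxb2 differed by 1.84, Hoxb4 by 1.35 and Hoxb8 by 1.24, with the larger rise in KO, and Hoxa2 by -0.61, with the larger fall in KO. In pretreated cells that met interferon again, Hoxb2 differed by 1.38, Hoxb4 by 0.89, Hoxb6 by 0.85 and Hoxb7 by 0.83, with the larger rise in KO. KO libraries of Hoxb2 and Hoxb4 began lower at 0 h and came to within or near the WT range at 2 h. The naive differences rest on 1 KO library at 2 h. Groups of 2 are too small for a check of single libraries standing apart, and none was made.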

How the results depend on the processing

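Groups of 2 limit what can be seen, and HoxC and several HoxD values rest on few counts, so that small differences there were not detectable. None of the gene-level changes followed here reversed in any alternative. The 22 calls in the genotype average were 21 with DESeq2 and 20 to 23 with each library left out, and without the KO naive 2 h library the average was over the other 3 conditions; comparisons that need this group had no fit without it. Replicate numbers did not pair the libraries (21 correlations of same-numbered deviations, -0.018 to 0.064), and a replicate block gave 22 calls. The block moved no Hox count by over 1.5 times: it gave 4 and 10 for interferon in WT and KO naive cells, 6 and 14 in pretreated cells, 4 for each genotype difference of the interferon change and 0 for pretreatment.

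The 4 calls for interferon in WT naive cells were 1 without the 3 libraries low in Rn45s and Lars2, 2 with DESeq2 and 1 to 5 with each library left out. The 9 in KO naive cells were 5 with DESeq2 and 6 to 9 with a library left out. The 4 genotype differences in naive cells were 2 without the low libraries, 2 with DESeq2 and 2 to 4 with a library left out. The 4 in pretreated cells were 1 without the low libraries, 1 with DESeq2 and 1 to 5 with a library left out. The 0 calls for pretreatment in WT were 0 to 1. The cause of these moves was not tested. Of all genes called for interferon in WT naive cells, 48.9% were higher in the edgeR fit and 60.3% with DESeq2. In WT pretreated cells the share was 53.6%, 65.2% with DESeq2 and 63.9% without Rn45s and Lars2.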
